A study of Mus musculus with 12 samples.

Results

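A set of 10 genes of retinal vessels and vessel growth were followed in the retinas of C3H wild-type mice and of 3 mouse models of inherited retinal degeneration. They were taken by gene symbol and are 10 of the 32867 genes in the count table: the VEGF ligand Vegfa and its receptors Kdr and Flt1, the angiopoietin Angpt2 and its receptor Tek, the junction genes Cldn5, Cdh5 and Pecam1, the fenestration gene Plvap and the pericyte receptor Pdgfrb. In the Pde6b rd10 retina 2 of the 10 were called, both lower, where 15.9% of all tested genes were called higher and 8.08% lower. Angpt2 and Kdr fell 1.95-fold and 1.51-fold against C3H, and Flt1 was 1.47-fold higher. In the Pde6b rd1 retina the junction genes, Tek, Flt1 and Pdgfrb were lower by less than 1.5-fold, whereas in the Prph rd2 retina most of the 10 genes lay close to C3H.

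Entire retinas were sequenced after depletion of ribosomal RNA, with 3 samples in each of 4 groups. The Pde6b rd1 mice, which carry a viral insertion in the rod phosphodiesterase gene, were taken at postnatal day 13, and the Pde6b rd10 mice, with a point mutation in the same gene, at day 23. The Prph rd2 mice, which lack outer segments through a mutation of Prph2, were taken at day 29. The 3 C3H samples are 1 each from days 13, 23 and 29, so that every model was set against controls of which 1 sample had its own age. No agent was given to any group. The study's methods place rd1 and rd2 on C3H and rd10 on C57Bl6/J, while the labels give C57BL6/J for rd2 and no full background for rd1 and rd10, so mutation, age, and for rd10 at least the background, cannot be told apart. The study describes the samples as biological replicates, while the number of animals behind each sample is not given in the sources used here, so the p-values measure the spread between these samples. All comparisons with wild type share the same 3 C3H samples.

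Retinal vessels are lined by endothelial cells that are sealed by tight and adherens junctions and wrapped by pericytes. VEGF-A, made by glia and neurons, acts on its main signalling receptor VEGFR2, encoded by Kdr, while VEGFR1, encoded by Flt1, binds the ligand tightly, signals weakly and acts in part as a decoy. Angiopoietin-2 modulates the receptor Tie2, encoded by Tek, and loosens or supports vessels depending on context. In the retina Kdr is also found in neurons and Müller glia, and Angpt2 in horizontal cells, so a bulk measurement of these genes is not a measurement of vessels alone.

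The promoters of the receptor pair are shown because Flt1 and Kdr bind the same ligand, lie on the same chromosome and stood in opposite directions from C3H in rd10. RefSeq sequence was held for 5 of the 10 genes. The 250 bases before the start of each gene are given 5′ to 3′ on the gene's own minus strand, in build GRCm38.p6, at chr5:147726012-147726261 for Flt1 and chr5:75978456-75978705 for Kdr. Capitals mark the cyclic AMP response element TGACGTCA, the TATA sequence TATAAA and the core GGAA of ETS factors, a family used by many endothelial genes, which reads TTCC on the other strand.
Flt1: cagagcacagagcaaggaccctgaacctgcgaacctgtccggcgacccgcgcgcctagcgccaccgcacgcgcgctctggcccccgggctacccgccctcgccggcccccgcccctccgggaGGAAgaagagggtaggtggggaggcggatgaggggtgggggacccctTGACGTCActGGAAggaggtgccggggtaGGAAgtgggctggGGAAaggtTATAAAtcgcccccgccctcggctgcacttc
Kdr: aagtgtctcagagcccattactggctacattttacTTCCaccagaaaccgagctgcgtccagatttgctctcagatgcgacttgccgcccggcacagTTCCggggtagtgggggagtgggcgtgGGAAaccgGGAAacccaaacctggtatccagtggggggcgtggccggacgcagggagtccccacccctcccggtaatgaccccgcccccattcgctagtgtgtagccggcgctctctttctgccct
The Flt1 sequence holds TGACGTCA once and TATAAA once, and the Kdr sequence holds neither. Both hold GGAA 4 times. Searched on both strands in windows of 300 bases, TGACGTCA was found in 1.79% of 32851 promoters, TATAAA in 13.6% and GGAA in 96.0%. These motifs were chosen after the sequences had been read. Of the motifs chosen earlier, CGGAAG, in 16.9% of promoters, was found in no promoter entry of the 5 genes, and the hypoxia-response core ACGTG, in 19.6%, was found once, in the second of the Vegfa entries. A match describes the letters only.

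The libraries held 17049495 to 24755890 reads assigned to genes, and 3 reads, taken as the floor of detection, were worth between 0.121 and 0.176 CPM, counts scaled to library depth. All 10 genes lay above this floor in every sample and passed the filter on low counts. The transcript of the mutated gene was lower than in C3H in each model. Pde6b was at 57.1 ± 0.466 FPKM in rd1 and 171 ± 2.71 in rd10, against 243 ± 1.97 in C3H (SD, n = 3), and Prph2 at 453 ± 30.5 in rd2 against 924 ± 46.4. The sex genes moved with the groups. Xist, expressed from the inactive X chromosome, had 8 to 10 counts in C3H but 64914 to 83716 in rd1, 13428 to 18861 in rd10 and 37187 to 47452 in rd2, and the Y-linked Ddx3y had 1481 to 2005 counts in C3H, 0 in rd1, 1056 to 1696 in rd10 and 757 to 907 in rd2. Each rd10 and rd2 sample thus held both kinds of transcript. The share of female RNA cannot be told apart from the model, most of all in rd1.

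A gene is called below when its unadjusted p in edgeR's quasi-likelihood test was under 0.05 and it changed by at least 1.5-fold, and "adjusted p" refers to its p after the Benjamini-Hochberg procedure across every tested gene. FPKM values, reads scaled to gene length and library depth, are levels that can be compared between genes, and log2 fold changes with their standard errors (SE) are differences from the fit to the counts.

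**Figure D1:**
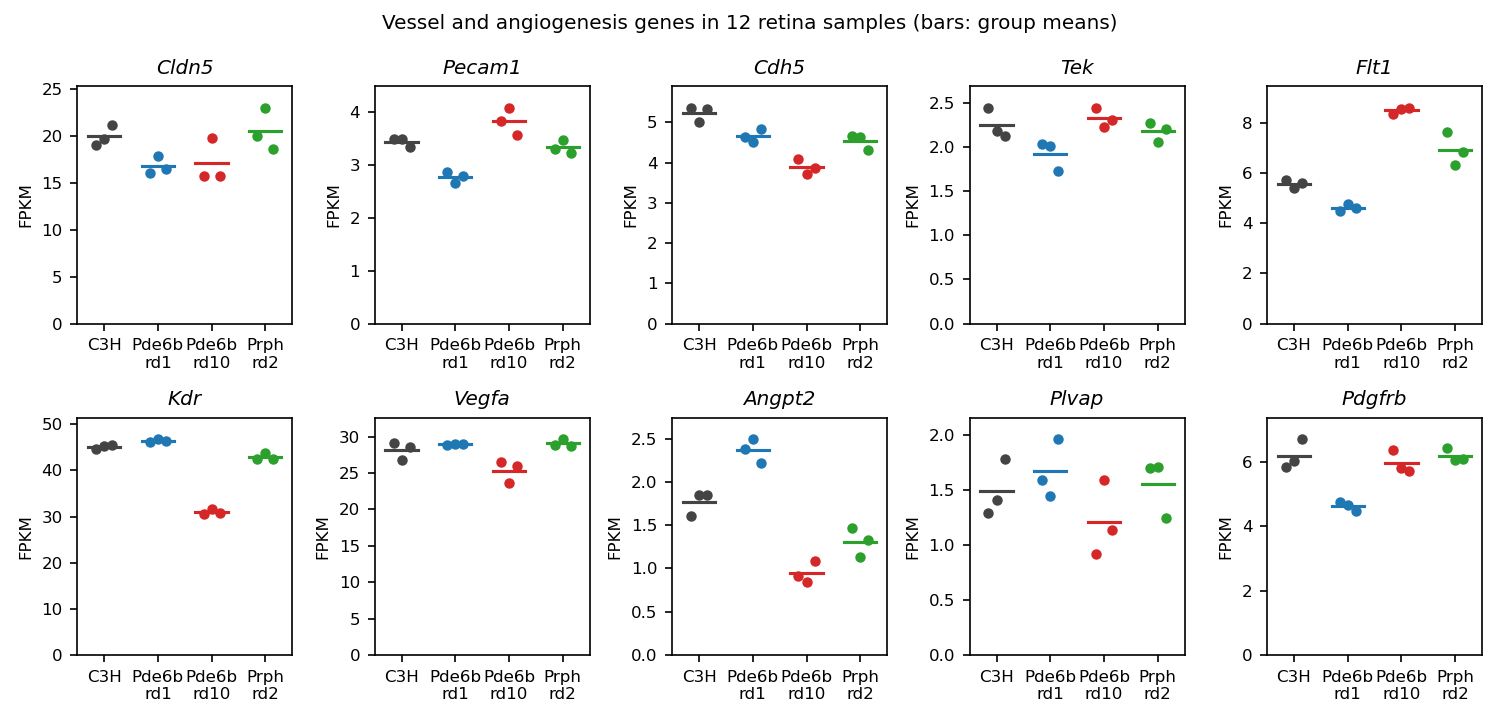
FPKM of the 10 genes on the vertical axis, from 0, for the 4 groups on the horizontal axis; each point is a sample and each bar a group mean of 3 samples. Kdr and Angpt2 were lowest in the Pde6b rd10 samples, where Flt1 was highest, and Pdgfrb was lowest in Pde6b rd1.

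Vegfa, the ligand that drives vessel growth and permeability (chr17:46016993-46032369, minus strand), kept a narrow range. It was at 29.1, 26.8 and 28.5 FPKM in the C3H samples of days 13, 23 and 29, at 28.8, 29.0 and 29.0 in rd1, at 26.5, 23.6 and 25.9 in rd10 and at 28.8, 29.6 and 28.7 in rd2. The rd10 samples all lay below the lowest C3H sample, and those of the other models overlapped C3H. Vegfa differed from C3H by -0.03 on the log2 scale in rd1 (SE 0.038, adjusted p = 0.550) and by 0.01 in rd2 (SE 0.050, adjusted p = 0.901). In rd10 it was lower by a log2 fold change of -0.20 (SE 0.049, adjusted p = 0.00144), which is below 1.5-fold, and against the C3H sample of the same day the difference was -0.14 (adjusted p = 0.189).

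Angpt2, the context-dependent Tie2 ligand (chr8:18690263-18741562, minus strand), differed from C3H in all models, in opposite directions. The C3H samples had 118, 164 and 135 counts, the rd1 samples 192, 157 and 158, the rd10 samples 83, 58 and 80 and the rd2 samples 128, 100 and 119. Per length and depth this gave 1.61, 1.85 and 1.85 FPKM in C3H, 2.38, 2.50 and 2.22 in rd1, 0.909, 0.840 and 1.08 in rd10 and 1.47, 1.13 and 1.33 in rd2. The 4 groups did not overlap with each other in FPKM: rd1 stood highest, then C3H, rd2 and rd10. In rd10 Angpt2 fell by 0.96 on the log2 scale (SE 0.138, adjusted p = 5.37e-06), a call that held in 16 of 17 settings and was lost on log2(FPKM + 1), where the difference was -0.51. It was higher in rd1 by 0.34 (SE 0.1098, adjusted p = 0.0141) and lower in rd2 by -0.47 (SE 0.135, adjusted p = 0.0420), both below 1.5-fold. The adjusted p in rd1 was 0.0738 without C3H replicate 1 and 0.0595 with DESeq2. In rd2 it was 0.0748 with the replicate number as a block, 0.290 against the day 29 C3H sample, and over 0.05 without any of the 3 C3H samples (0.0600, 0.163 and 0.149) or rd2 replicates 2 (0.0725) and 3 (0.0539). Angpt2 lies inside Mcph1, a gene on the opposite strand with up to 366 counts. The 2 genes share 0 exonic bases in the annotation, and Mcph1 differed from C3H by 0.07 in rd10 (adjusted p = 0.536) and by 0.48 in rd1 (adjusted p = 4.36e-05). Whether the counting used strand is not given in the sources used here.

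Flt1, the decoy-like VEGF receptor (chr5:147561604-147726011, minus strand), also separated the groups. It was at 5.72, 5.39 and 5.61 FPKM in C3H, at 4.49, 4.77 and 4.60 in rd1, at 8.36, 8.56 and 8.62 in rd10 and at 7.64, 6.35 and 6.85 in rd2. All 3 rd10 samples stood above every other sample, the rd2 samples stood between them and C3H, and the rd1 samples stood lowest, with no overlap between groups. The log2 fold change against C3H was 0.56 in rd10 (SE 0.044, adjusted p = 1.07e-09), -0.34 in rd1 (SE 0.044, adjusted p = 7.68e-07) and 0.29 in rd2 (SE 0.067, adjusted p = 0.0149). None reached 1.5-fold in the main fit. In rd10 the threshold was passed with library size as the only scaling (0.61), on log2(FPKM + 0.1) (0.60) and against the day 23 C3H sample (0.60), and in rd2 the adjusted p was 0.340 against the day 29 C3H sample, 0.0950 without C3H replicate 2, 0.0539 without C3H replicate 3 and 0.0645 without rd2 replicate 1.

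Kdr, the main signalling receptor for VEGF-A (chr5:75932827-75978458, minus strand), was the most abundant of the 10 genes. It was at 44.7, 45.3 and 45.4 FPKM in C3H, at 46.1, 46.8 and 46.4 in rd1, at 30.5, 31.6 and 30.8 in rd10 and at 42.4, 43.8 and 42.4 in rd2. The rd10 samples formed a group of their own far below the rest, and each of the 4 groups spanned less than 2 FPKM. Kdr fell by 0.60 on the log2 scale in rd10 (SE 0.035, adjusted p = 8.55e-12), just past 1.5-fold, and 13 of 17 settings called it. It was just short of that fold without rd10 replicate 1 (-0.58), with library size as the only scaling (-0.54) and on log2(FPKM + 1) and log2(FPKM + 0.1) (-0.53 and -0.54). In rd1 and rd2 the log2 fold changes were -0.03 (SE 0.028, adjusted p = 0.391) and -0.11 (SE 0.041, adjusted p = 0.132).

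Because Kdr and Angpt2 are also known from retinal neurons, markers of horizontal cells (Lhx1, Onecut1, Onecut2, Calb1 and Gja10) were summed, a list added after the values were seen. Their summed level was 21.6 to 23.2 FPKM in C3H, 17.0 to 18.3 in rd1, 25.7 to 27.3 in rd10 and 24.0 to 27.1 in rd2. In rd10, 0 of the 5 markers were called, with Calb1 at a log2 fold change of 0.21, Onecut2 at 0.52, Gja10 at 0.29, Lhx1 at -0.02 and Onecut1 at -0.32. In rd1, Onecut2 (0.92) was called higher and Calb1 (-0.78) and Gja10 (-0.64) lower. Most of the sum was Calb1, and without it the order changed, at 6.09 to 7.04 in C3H, 7.66 to 8.44 in rd1, 7.28 to 8.24 in rd10 and 5.86 to 7.03 in rd2. The part of these cells in the levels of Kdr and Angpt2 was not tested.

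Tek, the Tie2 receptor of endothelial cells (chr4:94739289-94874976, plus strand), varied little. It was at 2.45, 2.18 and 2.13 FPKM in C3H, at 2.04, 2.02 and 1.73 in rd1, at 2.45, 2.23 and 2.31 in rd10 and at 2.28, 2.07 and 2.21 in rd2. Only the rd1 samples lay below all C3H samples. The log2 fold change was -0.30 in rd1 (SE 0.101, adjusted p = 0.0203), 0.00 in rd10 (SE 0.095, adjusted p = 0.997) and -0.08 in rd2 (SE 0.098, adjusted p = 0.701). In rd1 the adjusted p was 0.0935 without C3H replicate 1, 0.102 without rd1 replicate 3, 0.0781 with DESeq2, 0.0800 with library size as the only scaling and at most 0.144 with limma.

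The junction genes shared a lower level in rd1 and parted in rd10. Cldn5, the main claudin of tight junctions in the blood-retina barrier (chr16:18776847-18778262, plus strand), was at 19.1, 19.7 and 21.1 FPKM in C3H, at 16.0, 17.9 and 16.5 in rd1, at 15.7, 19.8 and 15.7 in rd10 and at 20.0, 23.0 and 18.7 in rd2. The rd1 samples lay below C3H, while rd10 replicate 2 reached into the C3H range. Cdh5, the cadherin of endothelial adherens junctions (chr8:104101625-104144511, plus strand), was at 5.37, 5.01 and 5.34 FPKM in C3H, at 4.64, 4.51 and 4.84 in rd1, at 4.08, 3.72 and 3.88 in rd10 and at 4.66, 4.63 and 4.31 in rd2. All 9 samples of the models were below the 3 C3H samples, and the rd10 samples were lowest. Pecam1, an adhesion molecule of endothelial contacts and of some blood cells (chr11:106654217-106750628, minus strand), was at 3.49, 3.49 and 3.34 FPKM in C3H, at 2.87, 2.67 and 2.78 in rd1, at 3.83, 4.08 and 3.57 in rd10 and at 3.29, 3.47 and 3.23 in rd2. Its rd10 samples were above C3H and its rd1 samples below.

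In rd1 the log2 fold changes were -0.33 for Cldn5 (SE 0.065, adjusted p = 2.58e-04), -0.24 for Cdh5 (SE 0.069, adjusted p = 0.00675) and -0.38 for Pecam1 (SE 0.070, adjusted p = 8.57e-05). In rd10 they were -0.29 for Cldn5 (adjusted p = 0.00620), -0.48 for Cdh5 (adjusted p = 1.57e-05) and 0.10 for Pecam1 (adjusted p = 0.263). In rd2 they were 0.01, -0.24 and -0.08, with adjusted p-values of 0.960, 0.0535 and 0.536. None of these reached 1.5-fold, and the adjusted p of Cldn5 in rd10 was 0.0624 without rd10 replicate 1 and 0.0892 against the day 23 C3H sample, and that of Cdh5 in rd1 0.0519 with library size as the only scaling. In bulk tissue, fewer endothelial cells and less RNA per endothelial cell cannot be told apart.

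Plvap, which forms the diaphragms of fenestrated vessels and is kept low in vessels with a mature barrier (chr8:71497765-71511752, minus strand), was the lowest of the 10 genes in C3H, with 45 to 81 counts over the 12 samples. It was at 1.29, 1.40 and 1.78 FPKM in C3H, at 1.59, 1.45 and 1.96 in rd1, at 0.915, 1.59 and 1.13 in rd10 and at 1.70, 1.70 and 1.25 in rd2. Every model overlapped C3H. The log2 fold change was 0.09 in rd1 (SE 0.183), -0.38 in rd10 (SE 0.209) and 0.03 in rd2 (SE 0.190), with adjusted p-values of 0.719, 0.136 and 0.958. Changes of the size of these errors were not detectable at this depth, as the rd10 value, though larger than its error, did not pass. Without rd10 replicate 2, the highest of its group, Plvap was called lower in rd10 (-0.61, adjusted p = 0.0181), and likewise against rd1 (-0.67) and rd2 (-0.63). It overlaps Gtpbp3 on the opposite strand, with which it shares 0 exonic bases.

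Pdgfrb, the receptor by which pericytes are recruited to vessels (chr18:61045150-61085061, plus strand), was low in a single model. It was at 5.86, 6.04 and 6.72 FPKM in C3H, at 4.77, 4.66 and 4.49 in rd1, at 6.37, 5.81 and 5.73 in rd10 and at 6.43, 6.06 and 6.11 in rd2. All rd1 samples lay below every other sample. Its log2 fold change in rd1, -0.49 (SE 0.064, adjusted p = 9.23e-07), stayed under 1.5-fold, and in rd10 and rd2 it was -0.11 (SE 0.068, adjusted p = 0.196) and -0.03 (SE 0.069, adjusted p = 0.828).

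**Figure D2:**
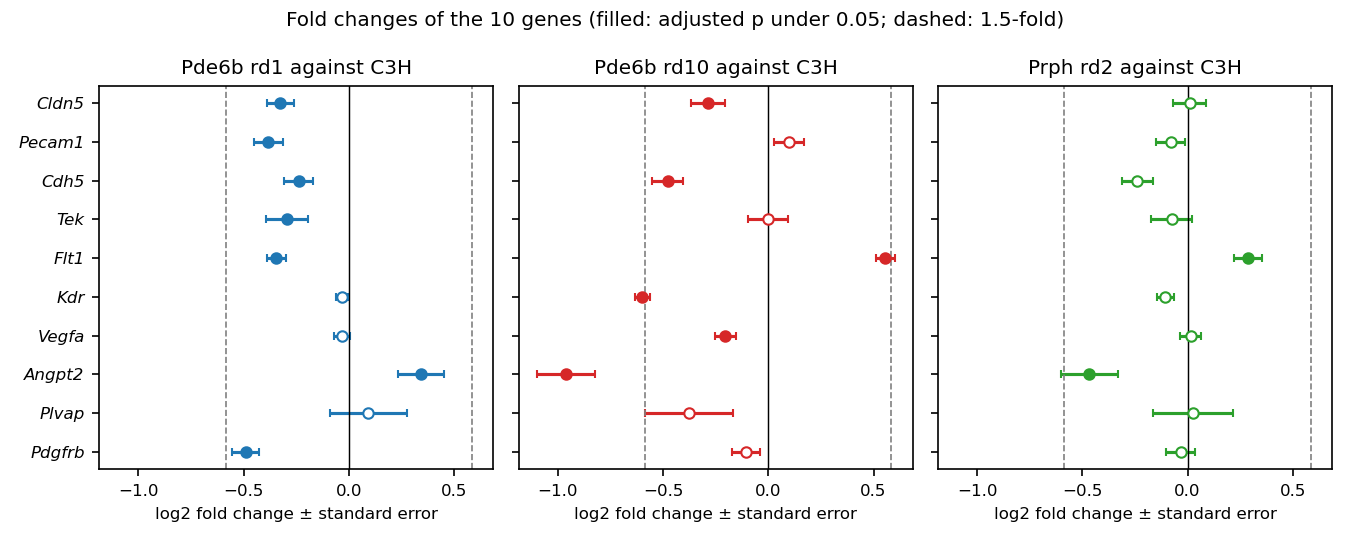
Log2 fold change of each gene against C3H on the horizontal axis, with its standard error as bars, in 1 panel per model; filled points had an adjusted p under 0.05 and dashed lines mark 1.5-fold. Only Kdr and Angpt2 in Pde6b rd10 lie beyond a dashed line.

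Counted together, 0 of the 10 genes were called in rd1, where 8.98% of the 18310 tested genes were called higher and 6.03% lower. In rd10, 0 were called higher and 2 lower, where 15.9% of 18704 genes were called higher and 8.08% lower. In rd2, 0 were called, where 2.68% of 18581 genes were called higher and 1.89% lower. By the adjusted p alone, at any fold, 7 of the 10 passed in rd1 (1 higher, 6 lower), 6 in rd10 (1 higher, 5 lower) and 2 in rd2 (1 higher, 1 lower), beside 43.2%, 54.1% and 9.70% of all genes tested. The median log2 fold change of the 10 genes was -0.27 in rd1, -0.25 in rd10 and -0.05 in rd2, and that of all genes was -0.01, -0.00 and -0.00.

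Levels per length spanned a wide range. In C3H, Kdr stood at 45.1 ± 0.415 FPKM, Vegfa at 28.1 ± 1.21 and Cldn5 at 20.0 ± 1.04 (SD, n = 3). A second tier held Pdgfrb at 6.20 ± 0.453, Flt1 at 5.58 ± 0.167 and Cdh5 at 5.24 ± 0.202. Pecam1 at 3.44 ± 0.0875, Tek at 2.25 ± 0.170, Angpt2 at 1.77 ± 0.137 and Plvap at 1.49 ± 0.254 came last. Of these neighbours, Angpt2 and Plvap overlapped across the C3H samples. In rd10, Flt1 at 8.52 ± 0.137 stood above Pdgfrb at 5.97 ± 0.349, and in rd2 Flt1 at 6.95 ± 0.649 above Pdgfrb at 6.20 ± 0.197, both the reverse of their order in C3H. The 3 C3H samples, of 3 ages, lay close together for most of the genes, but with 1 sample per age an effect of age was not tested.

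The models were also compared with each other, by contrasts in a fit of all 12 samples, which asks whether they differ by more than their spread. Between rd10 and rd1, the models of the same gene, Flt1 was higher in rd10 by a log2 fold change of 0.93 (SE 0.058, adjusted p = 3.34e-11) and Angpt2 lower by -1.28 (SE 0.132, adjusted p = 5.89e-08). Both were called, in a comparison where 17.6% of genes were called higher and 11.2% lower. Under 1.5-fold, Pecam1 was higher in rd10 than in rd1 by 0.51 (adjusted p = 3.24e-06), Pdgfrb by 0.41 (adjusted p = 3.20e-05) and Tek by 0.32 (adjusted p = 0.00733), and Kdr differed by -0.54 (adjusted p = 5.15e-11). Cldn5 differed by 0.07 (SE 0.093, adjusted p = 0.569), although it was lower than C3H in both.

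Between rd1 and rd2, Flt1 differed by -0.65 (SE 0.058, adjusted p = 2.15e-08) and Angpt2 by 0.79 (SE 0.123, adjusted p = 3.27e-05). These 2 were called, beside 8.66% of genes called higher and 8.21% lower. The Flt1 difference, called in 13 of 16 settings, was under 1.5-fold without rd2 replicate 1 (-0.58), the highest of its group, and on log2(FPKM + 1) and log2(FPKM + 0.1) (-0.50 and -0.57). That of Angpt2 was called in 15 of 16 settings and was under 1.5-fold on log2(FPKM + 1) (0.55). Between rd10 and rd2, 0 of the 10 genes were called, beside 13.5% of genes called higher and 6.16% lower, and by the adjusted p Kdr was lower in rd10 by -0.49 (3.94e-10), Angpt2 by -0.49 (0.00642) and Flt1 higher by 0.27 (4.40e-04). The Angpt2 difference was called without rd2 replicate 2 (-0.59) and without rd10 replicate 3 (-0.60).

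Ratios within a sample compare a pair of genes free of any scaling between libraries. As Kdr is also found in neurons and Müller glia, and Angpt2 in horizontal cells, the genes of a ratio need not come from the same cells. Flt1 over Kdr, the decoy-like receptor over the signalling one, was 0.128, 0.119 and 0.123 in C3H, 0.0973, 0.102 and 0.0992 in rd1, 0.274, 0.271 and 0.280 in rd10 and 0.180, 0.145 and 0.162 in rd2. The ratio was 2.23-fold higher in rd10 than in C3H, a difference of 1.15 on the log2 scale, with differences of 0.39 in rd2 and -0.31 in rd1. Angpt2 over Tek, ligand over receptor, was 0.658, 0.848 and 0.866 in C3H, 1.17, 1.24 and 1.29 in rd1, 0.371, 0.376 and 0.469 in rd10 and 0.644, 0.548 and 0.603 in rd2. It was 1.57-fold higher in rd1 than in C3H and 1.95-fold lower in rd10.

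No model overlapped C3H in either ratio. With 3 samples against 3 the exact two-sided permutation test cannot go below p = 0.1, the value found in each of these 6 comparisons, or 0.167 after adjustment over the 15 ratio comparisons made. The log2 ratio of Vegfa over Kdr differed by 0.39 in rd10, 0.12 in rd2 and 0.000175 in rd1, and that of Pdgfrb over Pecam1 by -0.21 in rd10, -0.11 in rd1 and 0.05 in rd2. Of these, the differences of Vegfa over Kdr in rd10 and rd2 and of Pdgfrb over Pecam1 in rd10 came without overlap (exact permutation p = 0.1). Plvap over Cldn5, fenestration over tight junction, overlapped C3H in every model, with log2 differences of 0.41, -0.09 and 0.02 in rd1, rd10 and rd2 and exact permutation p-values of 0.2, 0.7 and 0.9.

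**Figure D3:**
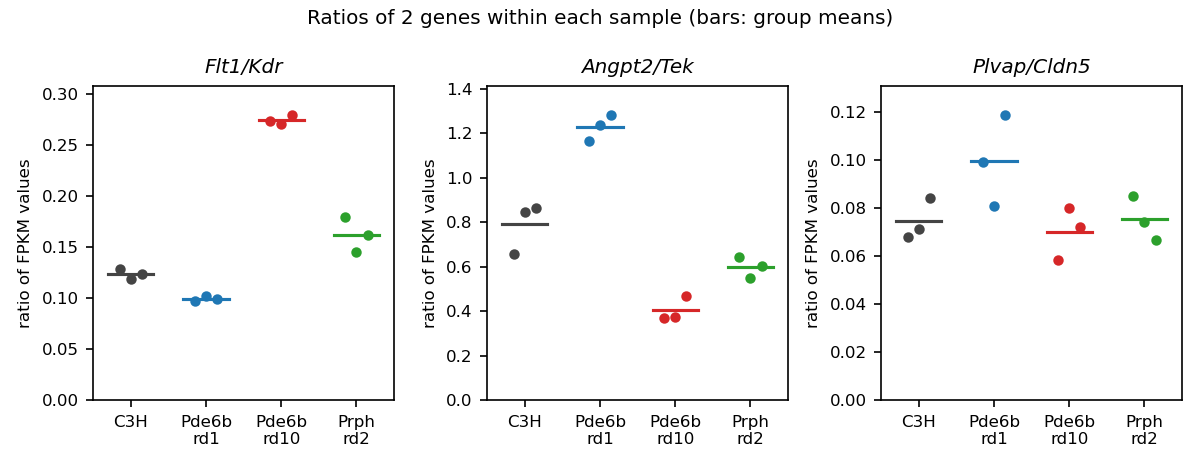
Ratio of the FPKM values of 2 genes within each sample on the vertical axis, from 0, by group; points are samples and bars are means of 3. The Pde6b rd10 samples lie between 0.271 and 0.280 for Flt1 over Kdr, above all others, and between 0.371 and 0.469 for Angpt2 over Tek, below all others, while Plvap over Cldn5 overlaps.

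The surrounding pathways were described with 10 gene lists. Beside their counts stand the shares of all tested genes that were called. These were 8.98% higher and 6.03% lower in rd1, 15.9% and 8.08% in rd10, and 2.68% and 1.89% in rd2. Of 15 further endothelial genes, 0 were called higher and 2 lower in rd1, with a median log2 fold change of -0.36. The called genes were Emcn, a sialomucin of endothelium (-0.67, adjusted p = 0.0133), and Icam2, an adhesion molecule (-0.60, adjusted p = 0.0644; called in 9 of 17 settings). In rd10, 1 was called higher and 3 lower, with a median of -0.20. The one that rose was Vwf, the clotting factor stored in endothelial cells and platelets, at 0.637 to 0.757 FPKM in C3H and 5.86 to 6.39 in rd10 (8.75-fold, log2 3.13, SE 0.069, adjusted p = 7.36e-19). Those that fell were Tie1, the partner receptor of Tie2 (-0.86, adjusted p = 1.09e-07), the transcription factor Sox7 (-0.85, adjusted p = 0.00111) and Icam2 (-0.62, adjusted p = 0.0345). In rd2, 1 was called, Ecscr (-0.73, adjusted p = 0.129), and the median was -0.16.

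Of 12 genes of the blood-retina barrier, 2 were called lower in rd1, the thyroid hormone transporter Slco1c1 (-0.81, adjusted p = 1.97e-06) and the efflux pump Abcb1a (-0.59, adjusted p = 1.40e-04; called in 8 of 17 settings), and 0 higher. In rd10, 3 were called in each direction. Abcb1a (0.94), the tight junction protein Ocln (0.85) and the junction scaffold Cgn (0.64) rose, and Slco1c1 (-1.01), the lipid transporter Mfsd2a (-0.76) and Itm2a (-0.59, called in 10 of 17 settings) fell, with adjusted p-values of 1.24e-04 or less. In rd2, 0 were called. The list medians were -0.09, 0.02 and 0.05 in rd1, rd10 and rd2. Of 9 genes of Norrin and Wnt signalling, the pathway that builds and keeps this barrier, 0 were called in any model, and 4, 4 and 0 of them had an adjusted p under 0.05 in rd1, rd10 and rd2.

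Among 6 tested VEGF ligands and receptors besides the members, 0 were called in rd1 and rd2, and in rd10 1 was called in each direction. Pgf, placental growth factor, which binds the Flt1 product but not that of Kdr, rose from 0.215 to 0.330 FPKM in C3H to 0.699 to 0.861 in rd10 (2.82-fold, SE 0.254, adjusted p = 4.08e-05), and the lymphatic growth factor Vegfc fell (-0.70, adjusted p = 0.00146). Of 8 genes of the angiopoietin and Tie group, the lipase inhibitor Angptl4 was the one called in rd1 (0.67, adjusted p = 0.00656). In rd10, Angptl2 (1.22), Angptl4 (1.09) and Angpt1, the activating Tie2 ligand (0.70), rose and Tie1 fell, with adjusted p-values of 4.59e-04 or less, while in rd2 0 were called. Of 5 genes, the PDGF ligands and the receptor Pdgfra, Pdgfc alone was called, in rd10 (-0.76, adjusted p = 1.88e-05).

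Genes of tip cells and sprouting had the lowest list median in rd10, -0.49 over 11 tested genes, of which 0 were called higher and 5 lower. Apln, the peptide apelin of tip cells, fell 9.81-fold, from 6.18 to 6.69 FPKM in C3H to 0.667 to 0.683 in rd10 (log2 -3.29, SE 0.111, adjusted p = 8.90e-16). Its receptor Aplnr fell 4.52-fold (-2.18, SE 0.111, adjusted p = 7.98e-13). The laminin gene Lamb1 (-0.60, called in 9 of 17 settings) and, outside the naming rule, the chemokine receptor Cxcr4 (-1.03) and the netrin receptor Unc5b (-0.59) were the others, with adjusted p-values of 1.41e-06 or less. In rd1, Jag1, a Notch ligand (-0.78, adjusted p = 2.69e-14), and Apln (-0.63, adjusted p = 2.84e-07) fell and the list median was -0.03, and in rd2 Cxcr4 fell (-0.91, adjusted p = 2.86e-04) with a median of -0.21.

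Genes of endothelial activation are those by which leukocytes attach to inflamed vessels, with related cytokine and clotting genes. Over the 7 genes tested in every model, 3 were called higher in rd10 and 0 lower, with a median of 0.39. Icam1 rose from 0.220 to 0.363 FPKM in C3H to 3.13 to 3.54 in rd10 (10.3-fold, log2 3.36, SE 0.147, adjusted p = 6.11e-14). The TNF receptor Tnfrsf1a rose 4.43-fold (2.15, SE 0.085, adjusted p = 1.31e-14) and Vcam1 2.47-fold (1.30, SE 0.055, adjusted p = 3.99e-14). Over the same 7 genes, 1 was called in rd1, the vasoconstrictor Edn1, which was lower (-0.96, adjusted p = 0.0114), and 0 in rd2, and the medians were -0.05 and -0.01. The remaining 3 genes of the list were at 2 counts or fewer in all C3H, rd1 and rd2 samples and passed the filter only through rd10, so that they had to differ and are given as values, without support from a count. P-selectin, Selp, had 43 to 57 counts in rd10 and 0 in C3H, and was at least 16.7-fold higher, against 3 counts per library. Lrg1, with 37 to 56 counts, was at least 15.7-fold higher and E-selectin, Sele, with 29 to 34 counts, at least 10.5-fold. These 3 were named after their values were seen and are left out of the count in rd10.

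**Figure D4:**
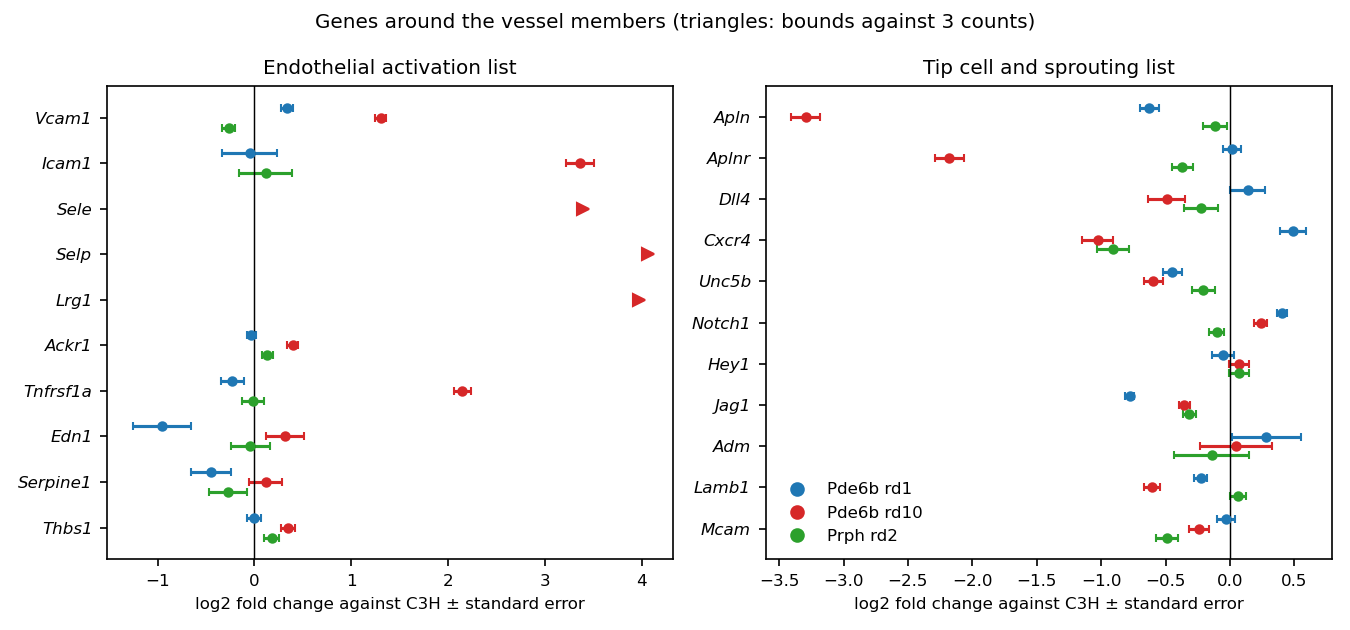
Log2 fold change against C3H on the horizontal axis, with its standard error, for the tested genes of 2 lists; colours are the models and triangles are lower bounds for genes at or under 3 counts in C3H. In Pde6b rd10, Icam1 lies at 3.36 and Apln at -3.29, while in Prph rd2 all points but that of Cxcr4 at -0.91 lie within 1.5-fold.

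Mural cell genes, from pericytes and smooth muscle, included called genes in each model, to be read beside the shares of all genes given with the lists. Of 13 tested in rd1, 1 was called higher and 4 lower, with a median of -0.26. Vtn, vitronectin, secreted by pericytes and other cells, fell from 108 to 113 FPKM in C3H to 30.8 to 33.0 in rd1 (3.65-fold, log2 -1.87, SE 0.038, adjusted p = 1.39e-21). Its level in C3H was far above that of the pericyte receptor Pdgfrb (5.86 to 6.72 FPKM), and which cells held Vtn was not tested. Acta2, smooth muscle actin (-0.91, adjusted p = 1.80e-04), and Rgs5, a pericyte regulator of G proteins (-0.62, adjusted p = 2.72e-11), also fell, whereas Ndufa4l2 rose (0.68, adjusted p = 4.78e-06). In rd10, the contractile gene Tagln (1.07, adjusted p = 6.72e-04) and Anpep (0.85, adjusted p = 0.00234) rose and Ndufa4l2 (-1.51, adjusted p = 5.52e-07) and Higd1b (-0.77, adjusted p = 0.0296) fell, with a median of -0.02. In rd2, Ndufa4l2 fell (-0.96, adjusted p = 2.21e-04), with a median of -0.10.

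Markers of vessel cells were present in every sample. The summed level of 6 defining endothelial markers (Cldn5, Pecam1, Cdh5, Emcn, Tie1 and Esam) was 37.9 to 40.4 FPKM in C3H, 32.5 to 34.0 in rd1, 32.0 to 37.4 in rd10 and 36.3 to 42.9 in rd2. As 3 of these are among the 10 genes, the sum was also taken over Emcn, Tie1 and Esam alone, at 9.85 to 10.6 in C3H, 8.35 to 9.25 in rd1, 8.88 to 9.82 in rd10 and 10.1 to 11.7 in rd2. The mural markers Rgs5, Cspg4, Notch3 and Kcnj8, without Pdgfrb, summed to 39.9 to 43.0 in C3H, 28.7 to 30.2 in rd1, 41.4 to 44.5 in rd10 and 38.7 to 42.9 in rd2. Both sums without members lay below the C3H range in rd1, and in rd10 the endothelial sum lay just below that range, while the mural sum overlapped it. Most of the mural sum was Rgs5, at 34.5 to 38.2 FPKM in C3H and 23.5 to 26.2 in rd1. In rd1, Cspg4 lay just below C3H, and Notch3 and Kcnj8 overlapped it. Esam lay below C3H in rd1, while Emcn and Tie1 overlapped it. In rd10, Tie1 fell (2.05 to 2.29, against 3.32 to 4.04), Esam rose (6.29 to 7.04, against 5.61 to 5.96) and Emcn overlapped C3H.

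Among the other cell types, 6 rod markers summed to 4274 to 4391 FPKM in C3H, 2121 to 2164 in rd1, 3802 to 3989 in rd10 and 2756 to 2979 in rd2. Müller glia, a source of Vegfa, had 6 markers at 933 to 962 in C3H and 515 to 522 in rd1, of which 3 were called lower, with 958 to 1018 in rd10 and 1015 to 1066 in rd2. Most of the C3H sum was Glul, at 523 to 536, against 188 to 194 in rd1 and 415 to 442 in rd10. The rd10 sum hid opposite moves, with 1 of the 6 markers called higher and 1 lower. By the adjusted p, 3 were higher and 3 lower there. Beside the adhesion molecules in rd10, 3 astrocyte markers stood at 85.9 to 94.7, against 11.4 to 12.03 in C3H. Most of this was Gfap, a gene that Müller glia also express (log2 3.19, adjusted p = 2.21e-21). Aldh1l1 rose by less (1.30, adjusted p = 1.03e-11), Pax2 was at -0.11 (adjusted p = 0.754), and without Gfap the sum was 6.67 to 7.78 against 2.97 to 3.06. In the same samples 6 microglia markers stood at 30.8 to 33.3, against 11.1 to 11.97, with 4 of the 5 tested in every model called higher. In rd1 and rd2 these sums were 11.8 to 12.1 and 10.2 to 11.6 for astrocytes and 11.1 to 13.1 and 10.3 to 11.1 for microglia. Pigment epithelium markers, 8 in all, were at 25.2 to 28.01 in C3H, 15.8 to 18.2 in rd1, 28.2 to 29.5 in rd10 and 25.7 to 26.5 in rd2. Fibroblast markers, 5 in all, were at 2.72 to 3.39 in C3H, 2.55 to 2.80 in rd1, 4.19 to 4.67 in rd10 and 2.57 to 3.12 in rd2. No marker of these lists was at or under 3 counts in all samples, and the part of these cells in the results was not tested.

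Over the 12 samples, the genes of which the levels ran most like the mean of the 6 endothelial members (Cldn5, Pecam1, Cdh5, Tek, Flt1 and Kdr) were Cngb1 (Pearson r = 0.986), Pacsin2 (0.986), Plch2 (0.980), Tob2 (0.977), Sebox (0.975), Tldc1 (0.973), Tnfsf12 (0.967) and Rabgef1 (0.967). All 8 were lower in every rd1 sample than in any other sample, as the 559 to 590 CPM of the rod channel gene Cngb1 in C3H, 506 to 534 in rd2, 436 to 466 in rd10 and 372 to 382 in rd1 show. They were chosen for likeness to a mean that was itself lowest in the rd1 samples, so this order follows from the choice. The 6 members did not all run together, with r = -0.53 between Pecam1 and Kdr and 0.81 between Pecam1 and Flt1. Among the members themselves, r was -0.92 between Flt1 and Angpt2, -0.76 between Flt1 and Kdr and 0.82 between Kdr and Angpt2. These points share groups, libraries and depth, and the values are a description.

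Circular RNAs of the 10 genes were rarely seen at this depth. Of 12510 in the deposited table, 1 came from these genes, from Pecam1 (chr11:106690936-106715184, minus strand), with 2 junction reads in rd2 replicate 2 and 0 in the other samples.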

How the data were processed

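RNA of 12 samples of entire mouse retinal tissue, 3 per group, was extracted with TRIzol, depleted of ribosomal RNA and made into directional libraries. The authors aligned the reads to GRCm38 (HISAT2 is listed in the submitters' processing notes) and deposited gene counts from HTSeq v0.11.2, without normalization. The FPKM values are the deposited values that the authors made from these counts by gene length and total reads. CircRNA junction counts were deposited with TPM values that the authors made from them, which were not used here. Circular RNAs were found by the authors with TopHat2 v2.1.1 and CIRCexplorer. Samples were grouped by their titles.

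Counts were normalized by TMM, filtered with filterByExpr and tested with the quasi-likelihood test of edgeR 4.0.16 in R 4.3.3, 1 model at a time against C3H, and between models by contrasts over all 12 samples. A gene was called at p under 0.05 and a fold of at least 1.5. Adjusted p-values are Benjamini-Hochberg values over all genes tested. The 17 settings include DESeq2 1.42.0 and limma 3.58.1 on log2(FPKM + 1) or log2(FPKM + 0.1). The replicate number as a block was another setting. The steps were tested on simulated data with 200 changed genes. Tables and figures were made with Python 3.11.15. Gene positions are from GENCODE vM21, promoters from RefSeq.

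The members and lists were chosen with earlier results of these data known. Named are the 10 members, up to 3 called genes per list, model and direction by smallest p, the 8 genes most like the endothelial mean, and the label checks. Each sample held between 17049495 and 24755890 counted reads, and the floors allow for counting error alone, because the libraries carried no molecular identifiers.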

Additional observations from a re-analysis of the deposited data

Results flagged for a closer look

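The levels of Angpt2 and Flt1 differed between the models by a test of the difference itself, in contrasts over all 12 samples. Angpt2 was lower in rd10 than in rd1 by a log2 difference of -1.28 and higher in rd1 than in rd2 by 0.79. Flt1 was higher in rd10 than in rd1 by 0.93, and differed between rd1 and rd2 by -0.65. In the C3H samples of days 13, 23 and 29, Angpt2 was at 1.61, 1.85 and 1.85 FPKM and Flt1 at 5.72, 5.39 and 5.61. With 1 C3H sample per age, an effect of age was not tested. Mutation, age, the share of female RNA and, for rd10 at least, the background cannot be told apart. Groups of 3 samples are too small for the search for single samples far from the rest.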

How the results depend on the processing

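In rd10, where 2 members were called, 0 were called on log2(FPKM + 1) and 1 without rd10 replicate 1, with 1 to 3 called when each sample was left out. On log2(FPKM + 1), 1097 genes were called in rd1 (2749 in the main fit), 2035 in rd10 (4479), 166 in rd2 (850), 2929 between rd10 and rd1 (5644), 1791 between rd10 and rd2 (3862) and 1115 between rd1 and rd2 (3308), where the added 1 shrinks folds of low genes. In rd2, 384 genes passed with the adjusted p as threshold, 1300 without a filter on low counts, and 745 to 1435 with a sample left out, the highest without rd2 replicate 2; the cause was not tested. With at least 2 junction reads asked of at least 2 samples, 0 circRNAs of the members were left.

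Sign changes touched only members and ratios that were not called and lay near 0. With library size as the only scaling, log2 fold changes turned to 0.0417 for Kdr and 0.0425 for Vegfa in rd1 and to 0.0412 for Cdh5 between rd1 and rd2. On log2(FPKM + 1) and log2(FPKM + 0.1), Kdr in rd1 was 0.0408 and 0.0416, Vegfa in rd1 0.0404 and 0.0417, Pdgfrb in rd2 4.90e-04 and 8.01e-04, and Cdh5 between rd1 and rd2 0.0332 and 0.0396. Tek in rd10 was -0.00259 with DESeq2, -7.59e-04 with its size factors and -0.00667 without a filter. Against the same-day C3H sample in rd2, Cldn5 was -0.0745, Vegfa -0.00741, Plvap -0.234, the log2 ratio of Plvap over Cldn5 differed by -0.169 and that of Pdgfrb over Pecam1 by -0.111, and in rd1 that of Vegfa over Kdr by -0.0659.

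With each sample left out in turn, log2 fold changes spanned -0.0423 to 0.23 for Plvap in rd1, -0.0374 to 0.0555 for Tek in rd10, -0.0737 to 0.0721 for Cldn5 in rd2, -0.0206 to 0.0382 for Vegfa in rd2, -0.0643 to 0.168 for Plvap in rd2, -0.0727 to 0.0298 for Pdgfrb in rd2, -0.0473 to 0.125 for Cldn5 between rd10 and rd1, -0.0576 to 0.00245 for Cdh5 between rd1 and rd2 and -0.0941 to 0.131 for Plvap between rd1 and rd2, and log2 ratio differences -0.194 to 0.038 for Plvap over Cldn5 in rd10, -0.0756 to 0.109 for Plvap over Cldn5 in rd2, -0.00279 to 0.129 for Pdgfrb over Pecam1 in rd2 and -0.037 to 0.0332 for Vegfa over Kdr in rd1. Over all settings, 876 member values kept direction and side of the threshold, 37 changed sign, 8 gained and 9 lost the call, and 85 of the values of called list genes lost it. Of the named list genes, Abcb1a in rd1 (8 of 17 settings), Icam2 in rd1 and Lamb1 in rd10 (9), Itm2a in rd10 (10) and Epas1 in rd1 and Icam2 in rd10 (11) were called least often. In the main fits the replicate numbers were not taken as pairs. Deviations of same-numbered samples correlated at 0.057 to 0.126 in rd1, -0.042 to -0.001 in rd10 and -0.071 to 0.067 in rd2. In rd1 only, every sample was closest to its own number, with -0.076 to 0.023 between unlike numbers. With the replicate block, 2774, 4434 and 855 genes and 0, 2 and 0 members were called, in rd1, rd10 and rd2 in that order, and Tek in rd10 was -0.00526. Depth limits Plvap and Angpt2 most, with 45 to 81 and 58 to 192 counts.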

Other observations

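Of the genes of the response to low oxygen, a stimulus of Vegfa in the retina, 14 were tested in each model. In rd1, 0 were called higher and 2 lower, beside 8.98% and 6.03% of all genes. In rd10, 2 were called higher and 1 lower, beside 15.9% and 8.08%. In rd2, 0 were called higher and 1 lower, beside 2.68% and 1.89%. Hexokinase 2, Hk2, fell in rd1 (-1.34, adjusted p = 8.41e-19) and in rd2 (-0.91, adjusted p = 1.62e-08) and rose in rd10 (0.64, adjusted p = 7.38e-12). In rd1 Epas1, the oxygen-sensing factor prominent in endothelium, fell (-0.60, adjusted p = 4.24e-12). In rd10 the glycolysis regulator Pfkfb3 rose (0.65, adjusted p = 3.28e-09) and Ndrg1 fell (-1.02, adjusted p = 1.03e-14). The list medians were 0.01 in rd1, 0.19 in rd10 and 0.00 in rd2.

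Red blood cell markers, 6 in all, summed to 55.3 to 58.6 FPKM in C3H, 55.7 to 60.4 in rd1, 61.5 to 68.0 in rd10 and 88.7 to 103 in rd2. In rd2, 3 of 5 tested were called higher and 0 lower, beside 2.68% and 1.89% of all genes. None of the 10 vessel genes were called there.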
